A study of Mus musculus with 2 samples.

Results

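Multi-exon antisense models are spliced transcript models that the long reads placed on the strand opposite to a gene. Members were all models that the deposited tables class as antisense and that have at least 2 exons, in either library, with the 2 models over Mc2r left out. They numbered 1101 distinct intron chains of the 113842 multi-exon chains in the series, 526 with this class in replicate 1 and 663 in replicate 2. A chain is the ordered set of introns of a model on its chromosome and strand, and its reads were counted under whatever class each library gave it. Each member was then sorted by its introns. In the 255 mirrored models every intron equals, at both ends, an annotated intron of the opposite strand. In the 816 own-intron models no intron does, and 30 mixed models have introns of both kinds. The gene on the opposite strand is called the host here. There were 992 hosts, and 14 own-intron members lay opposite new loci only.

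The libraries came from total RNA of the adrenal gland of untreated male B6CASTF1/J mice, F1 hybrids of C57BL/6J and CAST/EiJ, aged 4 days. There was 1 group with 2 biological replicates and 1 library for each. The labels do not settle whether the libraries came from 2 animals, so differences below describe libraries.

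A natural antisense transcript is made from the DNA strand opposite to a gene, from its own promoter, and may overlap the gene's exons or lie in its introns. The spliceosome reads signals on the RNA itself: nearly all introns start with GT and end with AG when written as DNA on the transcribed strand. The same intron read from the other strand starts with CT and ends with AC, and only a rare minor class of introns ends in AC. The strand of an intron can therefore be read from its end bases, apart from the strand that a read was given.

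The bases at the intron ends show this difference between the classes. Each line below gives the last 10 exon bases and first 10 intron bases, or the last 10 intron bases and first 10 exon bases, 5′ to 3′ on the strand of the antisense model, with the first or last 2 intron bases in capitals. The first 6 lines belong to mirrored models over Nr2f2, an orphan nuclear receptor gene, and over Rian, an imprinted noncoding RNA gene. They are shown because both loci were found in both libraries and because their hosts are in the gene lists described further on. The bases are those of the GENCODE M21 transcripts, filled in from RefSeq promoter windows of the same build (mm10, GRCm38), and not those of the reads.
Nr2f2 intron 1, start (chr7:70354922-70354941, plus strand): ccacaggcatCTggaagaaa
Nr2f2 intron 1, end (chr7:70357753-70357772, plus strand): tccttcctACctgaggtgaa
Nr2f2 intron 2, start (chr7:70358281-70358300, plus strand): ctctgtacagCTgcaggagg
Nr2f2 intron 2, end (chr7:70359878-70359897, plus strand): aggccgatACcttcccgtct
Rian intron 1, start (chr12:109649144-109649163, minus strand): agaatgcattCTgagagttc
Rian intron 1, end (chr12:109646742-109646761, minus strand): cttcacttACttcagctgcc
The own-intron models below lie over Vmp1, which encodes an endoplasmic reticulum protein of autophagy, and over Sel1l, which encodes a part of the machinery that removes misfolded proteins from that compartment.
Vmp1 intron 1, start (chr11:86630619-86630638, plus strand): gacgccccagGTaagcaaac
Vmp1 intron 1, end (chr11:86630889-86630908, plus strand): gtttctgtAGaagtttccag
Sel1l intron 2, start (chr12:91806903-91806922, plus strand): ggtagagatgGTgagtggta
Sel1l intron 2, end (chr12:91809577-91809596, plus strand): atgtttgcAGaacgaagaaa
Sel1l intron 3, start (chr12:91809819-91809838, plus strand): accgaccaagGTgagtgtgt
Sel1l intron 3, end (chr12:91814383-91814402, plus strand): tccatttcAGgctggaattc

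Bases at both intron ends could be read for 33 of the 341 introns of mirrored models and for 93 of the 1266 introns of own-intron models, since only transcribed and promoter bases were at hand. All 33 readable mirrored introns read CT-AC on the strand of the model (100%, 95% Wilson interval 89.6% to 100%). The class fixes this, because a mirrored intron is an annotated intron turned over. None of the 93 readable own-intron introns read CT-AC. GT-AG stood at 84 of them (90.3%, 82.6% to 94.8%), GC-AG at 6 and another pair at 3. Among 25818 readable annotated introns the share with GT-AG was 94.9% (94.6% to 95.2%), just above the upper bound for the own-intron models. The 7 readable introns of mixed models were 3 with GT-AG and 4 with CT-AC. Of the 1266 own-intron introns, 1255 shared neither end with an annotated splice site of the opposite strand, 10 shared 1 end and 1 shared both, and none was annotated on the strand of the model.

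**Figure D1:**
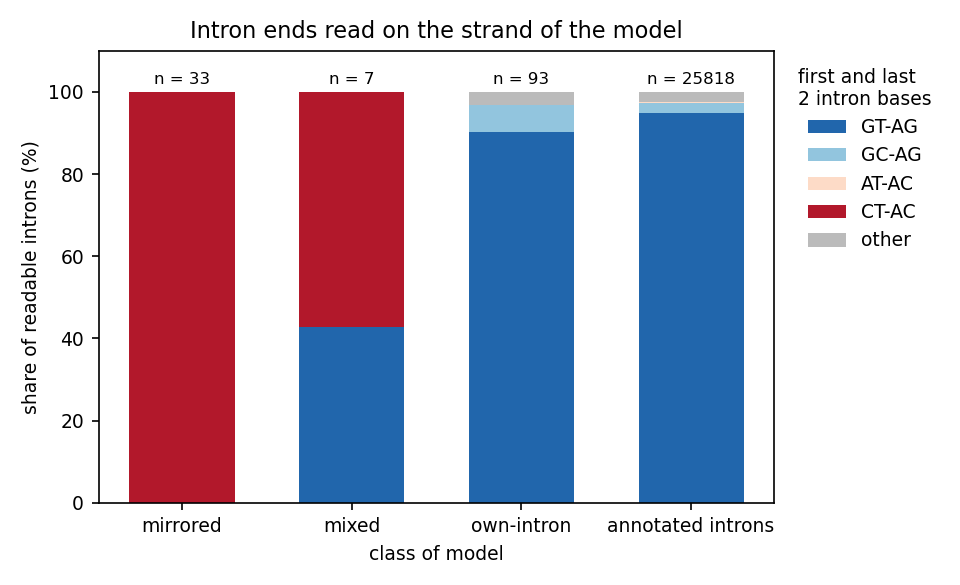
Bars give the share of readable introns (%) by their first and last 2 bases, read on the strand of the model, for each class and for annotated introns, with the number of readable introns above each bar. Mirrored introns are all CT-AC, and 90.3% of own-intron introns are GT-AG against 94.9% of annotated ones.

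A few own-intron introns had the same bases at both ends. In 4 of 82 whose exon and intron bases could be read around both ends, 8 or more bases in a row were shared across the start and the end of the intron, against 0 of 32 mirrored introns. The lines below show the leading example in reads, over St13, the gene of an Hsp70-interacting co-chaperone, and an example over Lifr, the gene of the leukaemia inhibitory factor receptor. Capitals again mark the end bases of the intron.
St13 intron 1, start (chr15:81384239-81384258, plus strand): acataaaaagGCttccaaga
St13 intron 1, end (chr15:81384435-81384454, plus strand): aaaaaaaaAGgcttccaaga
Lifr intron 1, start (chr15:7192787-7192806, minus strand): acagaaacagGTggatctct
Lifr intron 1, end (chr15:7192721-7192740, minus strand): acagaaacAGgtggatctct
The St13 intron of 196 bases shared 16 bases and the Lifr intron of 66 bases shared all 20. The St13 model had 2 reads in each library and the Lifr model had 1 read, in replicate 2. Where such bases repeat, the position of the intron within the repeat, and so its end bases, is not unique. The count takes only repeats that line up at both intron ends. A shifted repeat, such as that of the own-intron intron over Neat1, a nuclear noncoding RNA gene named after its values were seen, is not in it.

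There were 707726 reads in replicate 1 and 832552 in replicate 2, and those of mouse models numbered 688260 and 810645. Levels are in CPM, with the mouse reads of each library brought to the same sum, so 1 read equals 1.45 and 1.23 CPM. A count of 0 allows up to 3 reads, or 4.36 and 3.70 CPM. Intervals and floors cover counting error only, since the reads carry no molecular identifiers. Markers of the adrenal cortex and of chromaffin cells were all detected in both libraries. The 6 liver markers, none at 0, added up to 206 and 9802 CPM in replicates 1 and 2. The part of such differences in the member counts was not tested.

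The members took 850 reads in replicate 1, or 0.124% of mouse reads (95% Wilson interval 0.115% to 0.132%). In replicate 2 they took 1051 reads, or 0.130% (0.122% to 0.138%), and the intervals overlap. Mirrored models held 308 and 405 reads, which is 474 ± 36.8 CPM (SD, n = 2). Own-intron models held 530 and 622 reads, or 769 ± 1.96 CPM, and mixed models 12 and 24 reads. Mirrored models thus were 23.2% of the members and held 36.2% (33.1% to 39.5%) and 38.5% (35.6% to 41.5%) of their reads. Antisense models with 1 exon were far more common: 7962 models with 2.80% of mouse reads in replicate 1, and 13322 models with 4.11% in replicate 2.

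Most members rested on few reads. In all, 896 of the 1101 (81.4%) had 1 read over both libraries, 154 had 2 to 4, 35 had 5 to 9 and 16 had 10 or more. Of those 16, 12 were mirrored and 4 own-intron. The 12 leading chains of a class held 49.2% of the reads of mirrored models and 9.90% of those of own-intron models. Mirrored reads were therefore gathered on few loci and own-intron reads spread over many.

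The same chain was found in both libraries for 145 members, 49 mirrored (19.2%), 4 mixed and 92 own-intron (11.3%). A chain with 1 read cannot be in both. Among chains with 2 or more reads the shares were 76.6% of 64 mirrored and 68.1% of 135 own-intron chains. All 51 members with 5 or more reads were found in both, 22 mirrored and 29 own-intron. In 57 of the 145 the other library gave the chain another class: genomic for 20, a new splice site for 14, a new combination of known sites for 11, an incomplete match for 9 and intergenic for 3. Across the 22 mirrored chains with 5 or more reads, counts in the libraries had a Spearman correlation of 0.81, and across all 51 chains it was 0.41. These are descriptions over chains that share the same 2 libraries and are not independent. The chains were chosen by the sum of the counts compared, and mirrored chains reach 58 reads against 14 for own-intron chains. The correlations therefore do not rank the classes by agreement between the libraries.

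**Figure D2:**
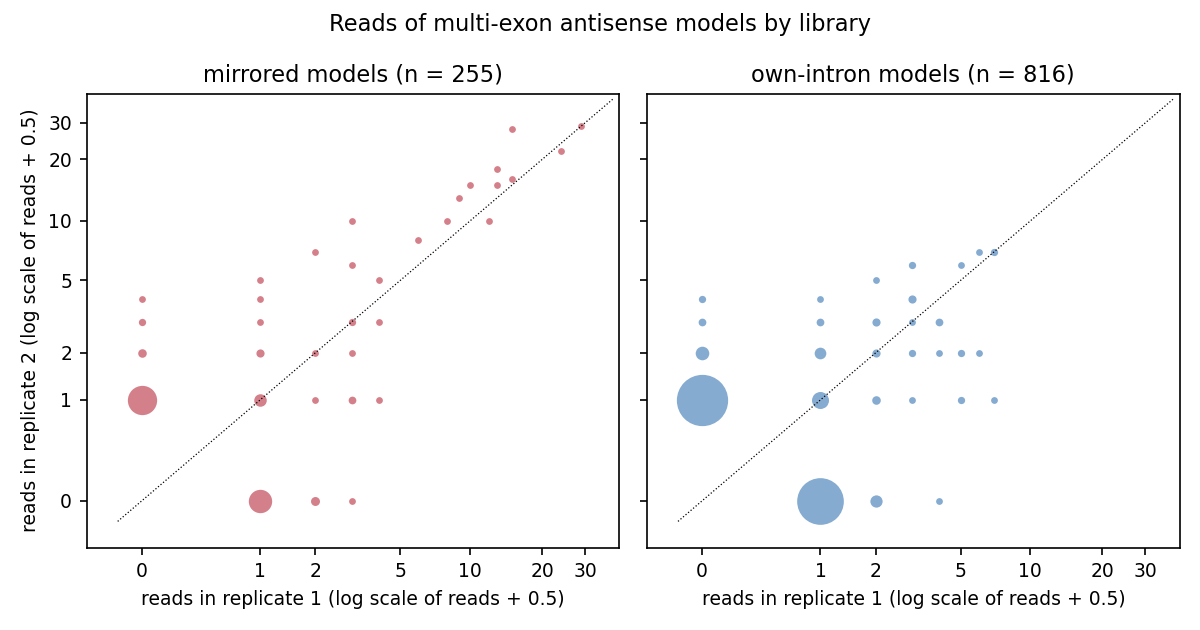
Reads of each mirrored (left) and own-intron (right) model in replicate 1 (x axis) and replicate 2 (y axis), on log scales of reads + 0.5, with the area of a point growing with the number of models there and a dotted line of equal counts. Mirrored models reach 29 reads in a library and own-intron models stay at 7 reads or fewer, and most models of both classes have 1 read and lie on an axis position of 0 in the other library.

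The leading mirrored models by host function began with genes of transcription control. Crebbp, which encodes the histone acetyltransferase and coactivator CBP, had 30 mirrored reads in replicate 1 and 32 in replicate 2 over 3 chains. Of these, 29 in each library belonged to 1 chain of 6 exons and 2344 bases at chr16:4128444-4213997 on the plus strand, whose 5 introns include the first of 30 introns of the host. Its 3′ end is the base at which an annotated Crebbp transcript starts. Among the members, which leave out Mc2r, the Crebbp locus gave the highest mirrored level, 41.5 ± 2.91 CPM (SD, n = 2).

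Nr2f2 had 24 and 22 mirrored reads, or 31.0 ± 5.47 CPM, in 1 chain of 3 exons at chr7:70353993-70360593 on the plus strand. That chain turns over both introns of an annotated Nr2f2 transcript, the introns whose ends are printed above. Tshz1, a zinc finger transcription factor gene, had 15 and 16 reads in a 2-exon chain that likewise mirrors all introns of a transcript. Gtf2a1, which encodes a part of the general factor TFIIA, had 6 and 8 reads at chr12:91573430-91589639 on the plus strand. These 4 loci differed between the libraries by at most 2 reads each.

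Genes of RNA processing followed. Mbnl1, a regulator of alternative splicing, had 15 reads in replicate 1 and 28 in replicate 2 in a chain of 2 exons at chr3:60529549-60595749 on the minus strand, or 28.2 ± 9.01 CPM. Its exons total 412 bases and its intron spans 65789. Chtop, which encodes an mRNA export factor, had 4 and 5 reads at chr3:90506261-90509452 on the plus strand. Mbnl1 was the locus among the 12 leading ones with the widest gap in reads between the libraries.

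The remaining leading hosts encode secreted, membrane and cytoplasmic proteins. Ccdc80, a gene of the extracellular matrix, had 25 reads in each library over 2 chains at chr16:45094053-45104536 on the minus strand, 33.6 ± 3.88 CPM. Igf1r, the receptor of insulin-like growth factor 1, had 13 and 18 reads at chr7:67952827-68005408 on the minus strand. B2m, the light chain of class I histocompatibility molecules, had 10 and 15 reads at chr2:122147686-122151151 on the minus strand. These 3 mirrored loci overlap exons of their hosts, as the class requires.

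Bcl2l1, which encodes the anti-apoptotic protein Bcl-xL, had 9 and 13 mirrored reads at chr2:152827333-152830618 on the plus strand. Tspan12, a tetraspanin gene, had 8 and 10 at chr6:21847856-21852169 on the plus strand. Carmil1, a regulator of actin capping protein, had 3 and 10 at chr13:24275464-24280790 on the plus strand, or 8.35 ± 5.64 CPM. Of these 3, Carmil1 had the larger spread between the libraries for its level.

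The balance of mirrored and own-strand reads varied widely between hosts. Crebbp had 1 own-strand read in replicate 1 and 9 in replicate 2, so mirrored reads were 96.8% (83.8% to 99.4%) and 78.0% (63.3% to 88.0%) of its mirrored and own-strand reads together. Igf1r had 5 and 7 own-strand reads, and its mirrored share was 72.2% (49.1% to 87.5%) and 72.0% (52.4% to 85.7%). Gtf2a1 had 0 and 2 own-strand reads, where the count of 0 allows up to 3. Mirrored reads outnumbered own-strand reads in both libraries for these 3 hosts, as they did for Ccdc80 below. The Igf1r interval in replicate 1 and the Gtf2a1 interval in replicate 2 (80.0%, 49.0% to 94.3%) include equal counts.

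Ccdc80 had 15 and 20 own-strand reads, with a mirrored share of 62.5% (47.0% to 75.8%) and 55.6% (41.2% to 69.1%), intervals that include equal counts. Tshz1 had 9 and 20 own-strand reads (62.5% and 44.4% mirrored), Mbnl1 21 and 30 (41.7% and 48.3%), and Nr2f2 31 and 46 (43.6% and 32.4%). At the other end B2m had 84 and 123 own-strand reads, with 10.6% (5.88% to 18.5%) and 10.9% (6.70% to 17.2%) mirrored. Bcl2l1 (15.0% and 14.8%), Tspan12 (11.8% and 10.8%) and Chtop (5.80% and 7.46%) had mostly own-strand reads as well. The order of the hosts by mirrored share was thus wide, from Crebbp and Gtf2a1 at the top to Chtop at the bottom, and neighbours such as B2m, Tspan12 and Bcl2l1 overlapped in their intervals.

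Across the 242 mirrored hosts, mirrored and own-strand reads had a Spearman correlation of 0.05 and a Pearson correlation of log2(reads + 1) of 0.05, over hosts that share the same libraries and mostly have 1 mirrored read. Mirrored reads outnumbered own-strand reads in 17 of the 242 hosts, in 8 of the 22 with 5 or more mirrored reads and in 4 of the 8 with 20 or more. Over all mirrored hosts they were 2.30% and 2.84% of mirrored and own-strand reads. The median host of a mirrored model had 32.5 own-strand reads over both libraries and that of an own-intron model 12.

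**Figure D3:**
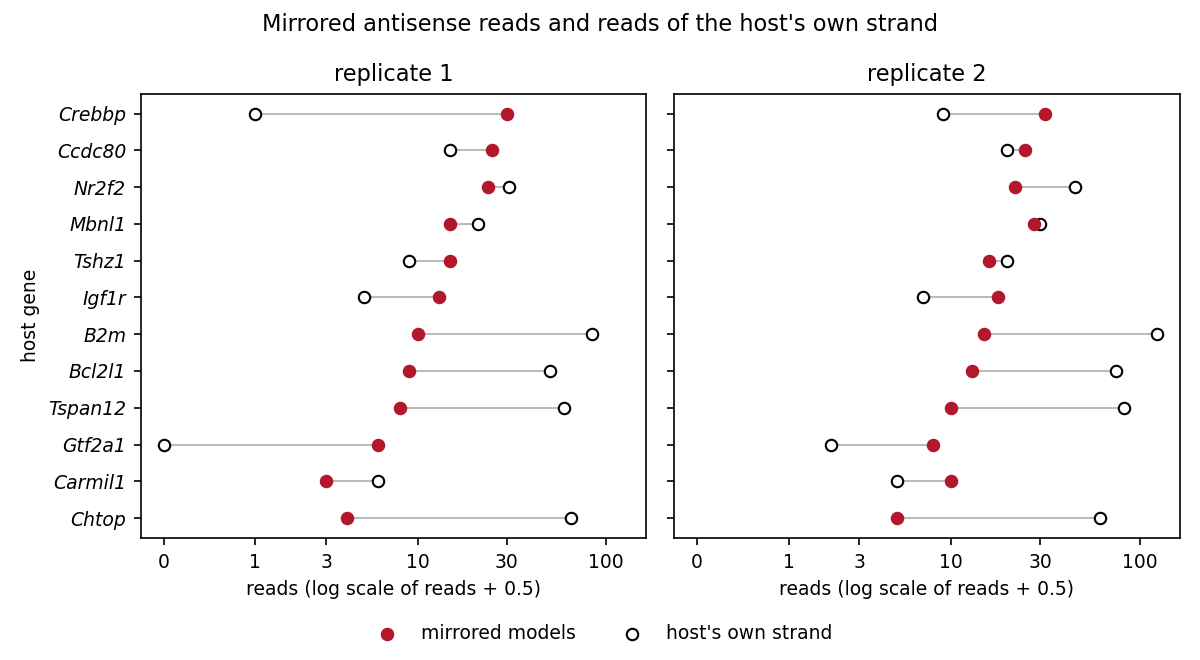
Reads of mirrored models (filled points) and of the host's own strand (open points) for the 12 leading mirrored hosts in replicate 1 (left) and replicate 2 (right), on a log scale of reads + 0.5. Crebbp, Ccdc80, Igf1r and Gtf2a1 have more mirrored reads in both libraries, and B2m, Bcl2l1, Tspan12 and Chtop have fewer.

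Mirrored chains with the first intron of the host held most of the mirrored reads. Position was taken in the host transcript with the most introns among those that hold the chain. All introns of that transcript were mirrored by 20 models, and the first but not the last intron by 60. The last but not the first was mirrored by 27 and inner introns alone by 145, while 3 models matched no single transcript. A model counted as inner may still hold the first or last intron of a transcript with fewer introns. Models with the host's first intron, 80 in all (31.4%), held 56.2% and 51.9% of mirrored reads and were 29 of the 49 found in both libraries. Models with the last intron, 47 in all (18.4%), held 23.4% and 21.7%. Along the host, incomplete matches on its own strand had the reverse order. Those that keep the first intron had 79 and 109 reads, and those that keep the last had 1037 and 1197. Those with the first were thus 7.08% and 8.35% of the sum. Complete transcripts are not in this sum, while the mirrored counts include whole chains. The host's first intron is the 3′-most one in the direction of an antisense model, so each set leaned to its own 3′ side.

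**Figure D4:**
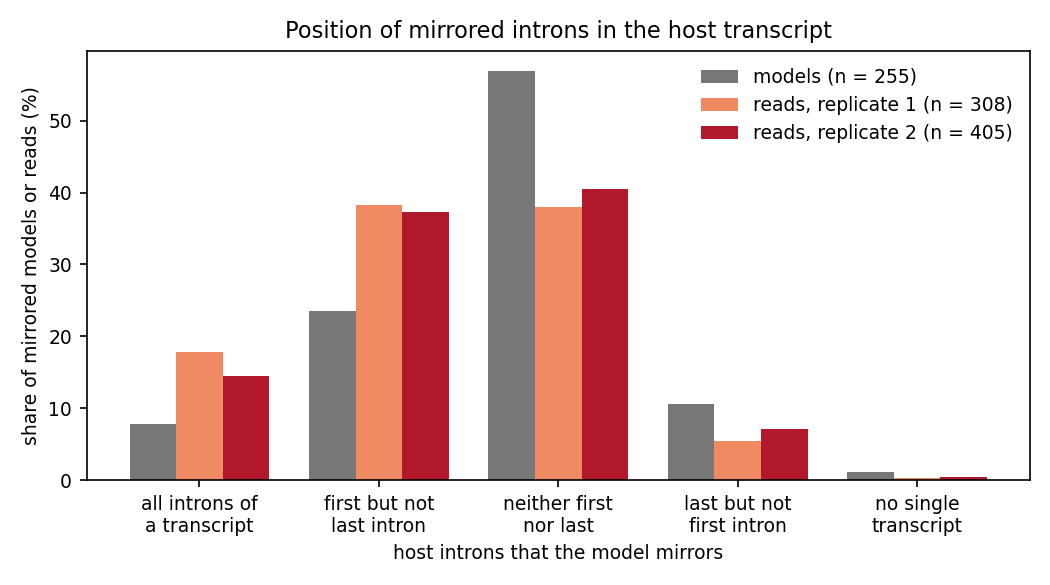
Share (%) of the 255 mirrored models and of their reads in each library, by the host introns that the model mirrors. Position is that in the matching host transcript with the most introns. Models with the first intron or with all introns take larger shares of reads than of models, and models of inner introns take 56.9% of models and 38.0% and 40.5% of reads.

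The ends of mirrored models also lay at the host's ends. The 3′ end was exactly the first base of an annotated host transcript in 109 of 255 (42.7%), against 37 of 802 own-intron models with a known host (4.61%). The 5′ end was exactly the last base of a host transcript in 76 mirrored models (29.8%) and in 41 own-intron models (5.11%), and both ends matched in 31 and 8. Of the mirrored models, 250 lay wholly inside the host, and 34 overlapped another annotated gene on the model's own strand. Whether the authors' program moved the ends of reads to annotated ends is not given in the sources used here.

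Own-intron models had fewer reads per locus. Tnfrsf1a, which encodes tumour necrosis factor receptor 1, had 7 reads in each library, in a chain of 2 exons at chr6:125357316-125358932 on the minus strand (9.40 ± 1.09 CPM), against 143 and 120 own-strand reads. Cntnap5b, of a family of neuronal cell adhesion proteins, had 6 and 7 at chr1:100223876-100231910 on the minus strand, against 1 and 0 own-strand reads. The Cntnap5b model lies inside its host and overlaps none of the host's exons, while the Tnfrsf1a model overlaps host exons with both of its own.

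The other leading own-intron loci had 7 to 12 reads in all. 9030025P20Rik had 5 and 7 antisense reads at chr17:14981576-14992897 on the minus strand, against 5 and 7 on its own strand. Trappc9, of a vesicle tethering complex, had 3 and 6 (own strand 45 and 58). Usp24, a deubiquitinase gene, had 3 and 6 as well (own strand 2 and 2). A chain with 3 and 6 reads at chr6:38430805-38432854 on the plus strand lay opposite a new locus only.

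Some of these loci had more reads in replicate 1. Dgki, a diacylglycerol kinase gene, had 7 and 1 reads, with 0 own-strand reads in both libraries. Vmp1 had 6 and 2 (own strand 110 and 108), with its intron of 270 bases printed above. Klhl29 had 6 and 2, Colca2 5 and 2, and Prr3 5 and 2. Counts of this size could not be tested between the libraries.

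Over all 802 own-intron models with a known host, 483 (60.2%) lay inside the host and 180 (22.4%) began within it and ran out past its start. Another 95 (11.8%) began past the host's end and ran into it, and 44 (5.49%) spanned it. At least 1 exon overlapped a host exon in 507 (63.2%), and 295 lay in introns alone. The hosts were protein coding for 85.9% of own-intron models and for 95.3% of mirrored ones.

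Starts of own-intron models gathered at start sites of the other strand. Of 816, 291 (35.7%, 32.4% to 39.0%) began within 1000 bases of an annotated opposite-strand start, 268 of them on the inner side and 23 upstream. The rule for members asks for overlap with a gene and so favours the inner side. Ends of the same models were near such a site in 19.4%. The share of starts was 38.0% in models found in both libraries and 35.4% in the others. In 162 models the start was exactly the opposite-strand start base, among them 88 of the 180 that ran out past the host's start. Fyn, a Src family kinase gene, and Prdm11 are examples, with 3 and 4 and with 5 and 1 reads, named after their values were seen. Whether the authors' program moved starts of own-intron models to annotated bases is not given either, so the shares describe models and not read ends.

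Annotated multi-exon transcripts of the antisense type were set beside these models. Of 3883, 1437 (37.0%, 35.5% to 38.5%) began within 1000 bases of an opposite-strand start, a share whose interval overlaps that of own-intron models. Their sides differed: 755 were upstream and 682 inside, and none began exactly on the start base. Mirrored models began near such a site in 24.3% and ended near one in 63.9%.

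**Figure D5:**
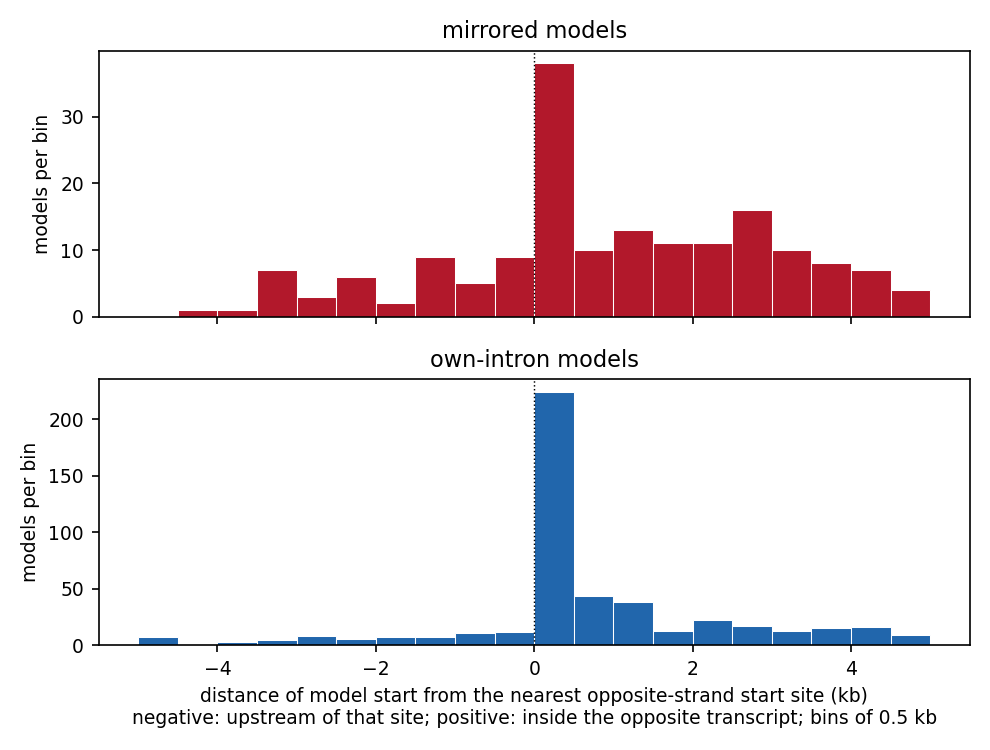
Number of mirrored (top) and own-intron (bottom) models in bins of 0.5 kb of the distance from the model's start to the nearest annotated start site of the opposite strand, with negative values upstream of it. The bin from 0 to 0.5 kb inside holds 224 own-intron and 38 mirrored models.

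Bases after the 3′ end could be read for 122 mirrored and 133 own-intron models. At least 12 A in the 20 genomic bases after the end stood at 14 mirrored models (11.5%, 6.96% to 18.3%) and 19 own-intron models (14.3%, 9.34% to 21.2%), and at 5 of 14 mixed ones. Among all windows of this length along the hosts' longest transcripts, read against the host's strand, the share was 1.47%, over windows that were not chosen for lying at an end. Where a 3′ end is the first base of a host transcript, the bases after it lie outside that transcript. The shares therefore cover unlike sequence. Among leading mirrored models, Mbnl1 had 16 A, Gtf2a1 17 and Prpf38b, a splicing factor gene with 3 and 6 mirrored reads that was named after its values were seen, 19. Ccdc80 had 2, B2m 4 and Bcl2l1 4. Apart from Prpf38b, the 3′ ends of these models are first bases of annotated host transcripts. If read ends were moved to annotated ones, which is not known, the counted bases need not follow the ends of the reads. Whether such bases took part in making the reads was not tested.

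Models with many exons were few and thinly read. Mirrored models had 2 exons in 76.5% of cases and 6 at most, and own-intron models had 2 in 67.9%. The median spliced length was 1454 bases for mirrored and 1073 for own-intron models, and median intron lengths were 1460 and 1466.5 bases. Among own-intron models in both libraries, those with the most exons lay over Plac1, a placental gene, with 6 exons and 1 and 2 reads, and over Sel1l, with 6 exons and 1 read in each. The model over Gm11427 had 5 exons and 1 read in each. The largest member of all, with 22 exons and 1 read in replicate 2, lay on an unplaced scaffold over AC149090.1 and was named after its values were seen.

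Mixed models held 36 reads over 30 chains, and none had more than 2. Zfp521, a zinc finger gene, had 1 and 2 reads over 2 chains. Itga2b, the platelet integrin alpha IIb gene, had 2 and 0. Hgsnat, Picalm and Prrc2a had 1 read in each library. Each mixed chain thus lies under the 3 reads that a count of 0 allows.

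Hosts were also counted in lists of genes that mark the tissue, with Mc2r left out as above. Of 18 steroid synthesis genes, 1 was a host (5.56%): Fdx1, the electron donor of steroid hydroxylases, with 1 own-intron read in replicate 2 against 573 and 566 own-strand reads. None of 20 chromaffin genes, 18 of them with at least 20 own-strand reads, was a host, and their 10871 and 9959 own-strand reads came with 0 mirrored reads, which allows up to 0.0276% and 0.0301%. The steroid list had 0 mirrored reads against 35860 and 28437 own-strand reads, which allows up to 0.00837% and 0.0105%. With the models over Mc2r kept, mirrored models held 46.2% and 48.2% of all member reads, against 36.2% and 38.5% without. The 0 thus holds with that gene left out by the rule. Over all 8276 genes with at least 20 reads, 466 (5.63%) were hosts and 148 (1.79%) had mirrored models. The share of hosts in the steroid list was thus close to that of all genes. Mirrored reads were 0.0315% and 0.0348% of mirrored and own-strand reads over these 8276 genes, little above what the chromaffin counts of 0 allow. The limits of the steroid list lie further below these shares. They lie above the shares of the 1000 most abundant genes, 0.00340% in replicate 1 and 0.00454% in replicate 2. The 0 of the steroid list is therefore not read as a lack of mirrored reads particular to it.

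The transcription factor list had 3 hosts among 20 genes, 15 of them with at least 20 own-strand reads (20.0% of those 15). Nr2f2 held all its mirrored reads, and Sox4, a regulator of development, had 1 own-intron read, in replicate 1. Of 25 respiration genes, Sdha had 1 mirrored read and Sdhb and Sdhc 1 own-intron read each, while no member lay over any of 25 ribosomal protein genes. Sparc, of the extracellular matrix list, had 1 and 5 mirrored reads against 2047 and 1977 own-strand reads. Of the imprinted genes, Rian had 4 and 2 mirrored reads over 2 chains against 4 and 15 on its own strand, and Gnas had 1 own-intron read. The liver list had 1 host among 14 genes with at least 20 own-strand reads (7.14%), Kng1, with 1 own-intron read in replicate 1. A list of 25 genes or fewer would hold few hosts at the share of all genes (5.63%). The host counts of the lists, chromaffin included, are therefore not read as differences. The 100 most abundant genes had 1 and 5 mirrored reads in all, over 1 host. These were 0.00076% and 0.00321% of their mirrored and own-strand reads, against 0.0315% and 0.0348% over all genes with at least 20 reads. By genes, 1.0% of the 100 and 1.9% of the 1000 most abundant had a mirrored model, against 1.79% of all.

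Members were also compared between the libraries, within the test of all multi-exon models with at least 20 reads in all. A two-sided Fisher's exact test with Benjamini-Hochberg adjustment called 331 of 7596 models (4.36%). A call needed an adjusted p below 0.05 together with a log2 ratio of 1 or more in either direction. Of the 9 members tested, all mirrored, 0 were called, and 0 had an unadjusted p under 0.05. Their adjusted p ran from 0.449 to 1.0 in Fisher's exact test. Mbnl1 had the smallest p (0.169) and a log2 ratio of replicate 2 to replicate 1 of 0.65, with a counting SE of 0.46. Nr2f2 had a log2 ratio of -0.36 (SE 0.43) and the main Crebbp chain one of -0.23 (SE 0.38). The 331 calls were 181 higher and 150 lower in replicate 2, which became 223 and 41 with TMM scaling and 224 and 38 with DESeq2 size factors, and the median log2 ratio of all tested models moved from -0.19 to 0.00 and 0.00. No member was called under either.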

How the data were processed

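For each library the authors deposited a table of whole, unscaled read counts, with 1 value per model, made from alignments to mm10 with the GENCODE M21 annotation, per the file headers and the descriptions deposited with them. Classes are those of the TALON program. No aligner, version or filter is named in the sources used here. Model coordinates came from the deposited annotations. Their gene lines were shorter or longer than the transcripts for 16246 of 55536 genes, so gene extents were taken from exons, and 141767 of 141862 reference transcripts had the same exons.

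Depth was 688260 and 810645 mouse reads. Spike-in reads were left out on both strands. Introns were compared at exact bases. Python 3.11.15 and scipy 1.17.1 gave Fisher's exact tests with 0.5 CPM added before log2, and edgeR 4.0.16 and DESeq2 1.42.0 gave scaling factors from models with at least 20 reads. The test was checked on simulated counts. With 1 library on each side, p-values compare libraries.

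Named were the 12 leading mirrored and own-intron loci found in both libraries, the 5 leading mixed models, members with 5 or more reads over steroid, chromaffin, imprinted or transcription factor genes, the 5 own-intron models with most exons in both libraries, and the 5 hosts with the highest mirrored ratio among those with 20 mirrored reads. Some items that this rule takes are not reported here. Members and lists were chosen with earlier results of these data known. The comparisons of repeated bases, bases after 3′ ends, exact ends and annotated antisense transcripts were chosen after values were seen.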

Additional observations from a re-analysis of the deposited data

Results flagged for a closer look

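ERCC spike-ins are made as RNA of 1 strand, so reads on the other strand measure strand assignment outside the mouse models. There were 176 such reads of 19466 in replicate 1 (0.904%, 95% Wilson interval 0.781% to 1.05%) and 173 of 21907 in replicate 2 (0.790%, 0.681% to 0.916%). They fell on 4 spike-ins in each library. ERCC-00009 gave 130 and 128 of them and had 0 reads on its own strand. Without it 46 and 45 reads remained, or 0.238% and 0.207%. None came from a model with 2 or more exons, since the spike-ins have no introns, and their relation to the spliced antisense models was not tested.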

How the results depend on the processing

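Counts of models and their read shares moved with the read minimum, and mirrored models, which held fewer reads than own-intron models over all members, held the larger share among members with at least 2 or 5 reads. With at least 2 reads, 205 members were left, 64 mirrored, 6 mixed and 135 own-intron, with 0.0673% and 0.0669% of mouse reads, of which mirrored models held 50.8% and 53.0%, and 54.7% of mirrored models had the host's first intron. With at least 5 reads, 51 were left and 51 found in both libraries, 22 mirrored, 0 mixed and 29 own-intron, with 0.0432% and 0.0414% of mouse reads. Mirrored models then held 62.3% and 69.3% of member reads, 68.2% of them had the first intron, and GT-AG stood at 100% of the readable own-intron introns, which was 1 of 1, over Vmp1. With the models over Mc2r kept, members held 0.146% and 0.154% of mouse reads and mirrored models 46.2% and 48.2% of member reads. Leaving out a replicate gave 526 to 663 members, 121 to 169 mirrored, 11 to 22 mixed and 394 to 472 own-intron, with 0.115% of mouse reads in replicate 1 and 0.117% in replicate 2, mirrored shares of host reads of 3.34% and 3.48%, mirrored shares of member reads of 35.7% and 37.6%, 32.5% to 37.2% of mirrored models with the first intron, 87.1% to 94.9% GT-AG and 100% CT-AC. Without genomic models in the total the share of replicate 2 was 0.138%. With intron ends allowed to differ by 5 bases there were 14 mixed models and mirrored models held 41.7% of member reads in replicate 2, and with 20 bases 14 mixed and 40.1% and 43.5%. With 1 equal intron enough there were 0 mixed models. By host and class, 255 members were found in both libraries. The mirrored share of host reads was 3.23% in replicate 2 against own-strand models with 2 or more exons, and 3.15% and 4.14% against complete known models. With at least 50 reads, 170 models were called between the libraries, and no setting called a member. In all, 52 of 100 values kept their value within counting error or 1.5 times. No paired analysis was possible because there is 1 group. Members with 1 read, 81.4% of all, lie under the 3 reads that a count of 0 allows, and intron ends could be read for few introns.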
